A study of Mus musculus with 46 samples.

Results

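Candidate cis-regulatory elements (cCREs) are short DNA segments picked as possible enhancers. The 32 cCREs described here are those of the Nanog locus that start below position 122600000 on mouse chromosome 6, out of 105 cCREs tested for this locus and 423 tested for the 3 loci of the study. Their fragments span 450 bp each and lie between chr6:122314119-122314569 (E001) and chr6:122595560-122596010 (E045) in mm10. The flank lies at lower coordinates than Nanog, and proximal does not mean near to the gene. The nearest member ends 111 kb and the farthest 393 kb before the annotated start of Nanog (chr6:122707489-122714633), and 42 of the 73 other cCREs lie nearer to it than every member. The first cCRE beyond the boundary is E046 (chr6:122605446-122605896), whose activity alone was 0.0877, 0.0304 and 0.182 in the + orientation, against 0.233, 0.177 and 0.258 for E045+, the last one inside.

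All values come from 1 group of samples, 3 biological replicates of reporter RNA from unmodified E14TG2a cells. E14TG2a is a line of mouse embryonic stem cells, grown here in 2i+LIF medium, which holds the cells in a naive pluripotent state. For each replicate the cells were nucleofected with a plasmid mix of the Klf2, Nanog and negative control libraries and harvested 24 h later. Each plasmid carried 1 fragment or 2 fragments in tandem upstream of a barcoded reporter. Activity is the authors' deposited ratio of RNA barcodes to plasmid barcodes, where the level that sets a value of 1 is not stated. The plasmids are transient and outside the native chromatin, so distance to a gene in the genome plays no part in the construct. The 3 replicates share 1 plasmid pool, so their spread does not cover variation among the barcodes that a construct carries.

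Nanog encodes a homeodomain transcription factor of pluripotent cells, and its promoter is known to carry a composite element bound by Oct4 and Sox2. An enhancer raises the output of a promoter, and some enhancers act on many promoters while others act on few. The genes of the flank include M6pr (a receptor that carries enzymes to lysosomes), Phc1 (a Polycomb group protein), Rimklb (a glutamate ligase), Mfap5 (a protein of elastic microfibrils) and Apobec1 (an enzyme that edits RNA). In GRCm38, the assembly of mm10, 15 members lie between annotated genes, 5 in Rimklb, 4 in Mfap5, 4 in Apobec1, 1 in M6pr and 1 in the long noncoding RNA gene 1700063H04Rik. Exon and intron positions were not used here. E019 and E020, both in Rimklb, share 55 bp, so they are not independent sequences.

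The sequences of the members themselves were not used here. The results below turn on the promoter fragment that follows a cCRE, so 3 of these promoters are shown, each by the RefSeq window of GRCm38.p6 from 250 bases before to 50 bases after the gene start that lies inside the tested fragment. The first is the Nanog promoter, fragment P010, window chr6:122707239-122707538 on the + strand. P003 (1700063H04Rik, chr6:122391129-122391428, + strand) and P025 (Clec4e, chr6:123289822-123290121, - strand) are shown because their activity alone was at the level of the empty vector or close to it and none of their pairs with members passed the test.
P010: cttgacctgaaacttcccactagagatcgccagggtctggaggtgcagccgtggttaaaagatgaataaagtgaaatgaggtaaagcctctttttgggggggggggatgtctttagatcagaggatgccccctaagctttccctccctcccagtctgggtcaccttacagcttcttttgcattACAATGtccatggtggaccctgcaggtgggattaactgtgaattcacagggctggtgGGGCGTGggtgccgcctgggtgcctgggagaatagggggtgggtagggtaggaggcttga
P003: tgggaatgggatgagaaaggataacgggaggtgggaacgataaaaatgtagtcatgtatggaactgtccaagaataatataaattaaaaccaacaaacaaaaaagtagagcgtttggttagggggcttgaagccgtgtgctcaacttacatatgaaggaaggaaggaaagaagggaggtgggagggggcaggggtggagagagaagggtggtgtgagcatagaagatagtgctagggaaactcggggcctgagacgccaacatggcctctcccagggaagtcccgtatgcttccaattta
P025: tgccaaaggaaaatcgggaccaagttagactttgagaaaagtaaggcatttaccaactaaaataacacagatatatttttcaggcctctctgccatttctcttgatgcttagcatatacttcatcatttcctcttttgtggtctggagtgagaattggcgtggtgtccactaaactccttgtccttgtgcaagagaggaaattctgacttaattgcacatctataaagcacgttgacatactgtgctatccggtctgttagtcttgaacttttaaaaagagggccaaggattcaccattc
Capitals mark matches, on either strand, to ATGCAAAT (octamer), CATTGT (SOX core), AAGGTCA (core of the Esrrb site), GGGTGTGG and GGGCGTG (KLF), TGANTCA (AP-1), CCGGAAG (ETS), GCATGCGC (part of the NRF1 motif) and CACGTG (E-box). The Nanog window held the SOX core as ACAATG at bases 184 to 189, which 12.6% of 32851 RefSeq promoter windows also held, and GGGCGTG at bases 241 to 247, which 8.44% held. The windows of P003 and P025 held no match to these 9 motifs, which says only that these letters are not in the windows.

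The empty vector gives the level of a construct without a cCRE or promoter. It gave 0.118, 0.0675 and 0.238 alone in replicates 1, 2 and 3, and 0.122, 0.0700 and 0.240 with the empty vector in both places. Replicate 3 thus had the highest and replicate 2 the lowest level of an empty construct, and the median Nanog cCRE alone followed it with 0.134, 0.0632 and 0.256. The number of barcodes behind each value is unknown. A replicate was at 0 in 18 of 275 member cCRE-promoter constructs and in 173 of 4272 member cCRE-cCRE constructs, and these were left out. Over the 4356 constructs that remained, log2 activities of replicate pairs correlated with r from 0.856 to 0.870 across constructs, which are not independent replicates.

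Alone, 9 of the 32 members drove the reporter above the median cCRE. These were E005, E023, E022, E027, E031, E015, E042, E043 and E017. Of the 61 oriented member fragments tested, 14 were called higher with limma at an adjusted p under 0.05, beside 19.0% of all 363 fragments tested in the Klf2 and Nanog libraries. Set against the empty vector, a baseline added after the data were seen, within the Nanog library alone, 15 of 61 were called, beside 24.3% of 202 tested, and these belonged to the same number of cCREs, 9. Both shares are near the background. Without pairing by replicate 7 fragments were called higher, and without replicate 3 there were 16 higher and 6 lower calls. The 47 member fragments not called against the median cCRE had medians of 0.122, 0.0521 and 0.242, next to the empty vector in each replicate.

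E005, between Phc1 and 1700063H04Rik and 1850 bp from the end of Phc1 (chr6:122342077-122342527), was the most active member. Its - orientation gave 3.02, 3.37 and 3.24 and its + orientation 1.75, 2.06 and 2.01. All 6 values lay far above the empty vector, by 25.9-fold and 15.6-fold on average (log2 4.70 ± 0.94 and 3.97 ± 0.93, SD, n = 3). The limma adjusted p against the median cCRE was 0.010 for both. E023, in Rimklb (chr6:122471468-122471918), came next with 2.29, 2.52 and 2.35 in the - orientation and 1.12, 1.24 and 1.35 in the + orientation, 19.3-fold and 9.98-fold above the empty vector.

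E022, also in Rimklb (chr6:122469256-122469706), gave 1.41, 1.04 and 1.46 in the + orientation, 10.4-fold above the empty vector. E027 (chr6:122491544-122491994), 4482 bp beyond Rimklb, gave 0.892, 1.05 and 0.992 in the + orientation. E031, in Mfap5 (chr6:122522578-122523028), gave 0.880, 0.708 and 0.897 in the - orientation. These 3 had log2 differences over the empty vector of 3.38 ± 0.69, 2.98 ± 0.96 and 2.74 ± 0.75 (SD, n = 3), and each lay above the empty vector in all replicates. E015 (chr6:122393046-122393496), 359 bp from 1700063H04Rik, was active either way round, with 0.577, 0.558 and 0.689 for + and 0.603, 0.545 and 0.654 for -. E043, in Apobec1 (chr6:122591108-122591558), was weaker, at 2.80-fold (+) and 2.61-fold (-) over the empty vector.

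At the other end, the lowest members by their higher orientation were E019+, E040+ and E001-. E019+ gave 0.110, 0.0209 and 0.348, E040+ 0.0783, 0.0521 and 0.214, and E001- 0.0927, 0.0527 and 0.192. None of these differed from the median cCRE by limma (adjusted p from 0.12 to 0.42), and E019+ lay above the empty vector in replicate 3 and below it in replicates 1 and 2. E030- had the widest spread of the fragments named here, at 0.343, 0.0140 and 0.348.

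Activity alone differed between orientations for 6 of the 29 members measured both ways round, beside 13.8% of all 174 cCREs tested (limma, adjusted p under 0.05). This test was added after the data were seen. E042, in Apobec1, gave 0.596, 0.465 and 0.668 as + and 0.112, 0.0610 and 0.234 as -, so that its - orientation did not leave the level of the empty vector (log2 difference 2.29, SE 0.31, adjusted p = 0.025). E022 differed by 1.96 (SE 0.13, adjusted p = 0.0062) and E027 by 1.24 (SE 0.16, adjusted p = 0.025), both with + higher. In E031 the difference ran the other way, with 0.201, 0.102 and 0.299 as + against 0.880, 0.708 and 0.897 as - (log2 -2.17, SE 0.27, adjusted p = 0.025). E023 (-0.95, SE 0.12) and E005 (-0.73, SE 0.10) were active both ways and higher as -. Without replicate 1 or without replicate 3, the fit called none of the 6.

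When a member stood before a promoter, few pairs exceeded the promoter alone, and those that did involved 5 cCREs. E005 and E023 raised P016, a promoter at the level of the empty vector alone, and E005, E043, E017 and E029 raised the Nanog promoter. Constructs of this kind were present for 24 of the 32 members, with 12 promoters in 21 orientations, and 257 could be tested. Of these, 11 were called higher by limma, or 4.28%. The share was 6.15% of 4941 pairs tested in both libraries and 14.2% of 1256 pairs in the Nanog library alone. The 3 called lower made up 1.17%, beside 6.60% and 1.11%. The median change was -0.19 on the log2 scale, beside -0.24 over all pairs tested. Leaving out any 1 of the 3 replicates left no call among members, while 13, 22 and 32 pairs had an unadjusted p under 0.05 when replicate 1, 2 or 3 was dropped, against 31 in the full set. Pairing construct and promoter within a transfection gave 15 higher and 13 lower calls.

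Most of these promoters did not drive the reporter by themselves. Of the 21 oriented promoters paired with members, 18 were less than 2 times as active alone as the empty vector, and 203 of the 257 pairs had such a promoter. Among these pairs 5 were called, all with E005 or E023, which were active without a promoter. P016 (chr6:122921155-122921605), which lies next to Clec4a1, gave 0.104, 0.0480 and 0.235 alone as P016-. With E005+ before it the activity was 1.04, 1.30 and 1.37, and with E023+ 1.29, 1.78 and 2.43 (16.8-fold over the promoter, log2 4.07, SE 0.64, adjusted p = 0.022). All of these values lie above every replicate of the promoter.

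Against the cCRE alone, most of these pairs were lower. E005+ alone gave 1.75, 2.06 and 2.01, so that E005+ P016- was lower than E005+ in all 3 replicates (log2 -0.66 ± 0.10, SD, n = 3). E005- P016-, at 0.791, 0.803 and 1.41, lay below E005- alone by -1.73 ± 0.47, and E005+ P023+ (chr6:123229467-123229917, overlapping Clec4n) below E005+ by -1.29 ± 0.60. E023+ P016- was the exception, 0.52 ± 0.33 above E023+ alone. E023 was measured with P016 and no other promoter.

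The Nanog promoter was active alone and was raised further by 4 members. Of the 49 member pairs with P010, 6 were called higher (12.2%), against 54 of 135 pairs (40%) of the other cCREs of the locus. P010+ alone gave 0.789, 0.627 and 0.864 and P010- 0.451, 0.341 and 0.522, 6.09-fold and 3.49-fold above the empty vector. E005- P010+ reached 7.30, 7.32 and 6.14, 9.15-fold over the promoter (log2 3.19, SE 0.19, adjusted p = 0.0043), and only 1 of the 86 other constructs with P010+ behind a cCRE was higher. E043- P010+ gave 4.91, 3.36 and 2.48, 4.58-fold over the promoter (adjusted p = 0.017). E043+ P010- gave 2.62, 3.01 and 1.85, 5.67-fold over P010- (adjusted p = 0.010). In each of these constructs the lowest replicate was above the highest replicate of the promoter alone, and they were higher than the cCRE alone as well.

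E017 and E029 were close to the empty vector in the orientations used and still raised the Nanog promoter. E017- (chr6:122437064-122437514, 9782 bp from Rimklb) gave 0.186, 0.0867 and 0.318 alone. Before P010+ it gave 1.93, 2.42 and 2.19, and before P010- 1.89, 1.98 and 1.84 (2.88-fold and 4.40-fold over the promoter, adjusted p = 0.014 and 0.0085). E029+ (chr6:122513757-122514207, in Mfap5) gave 0.185, 0.0859 and 0.304 alone and 1.53, 1.91 and 2.07 before P010- (4.22-fold, adjusted p = 0.010). For E017 and E029 the groups of pair and promoter values did not overlap.

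Compared with the sum of both fragments alone, 10 member pairs were above that sum in all 3 replicates, and 9 of them held the Nanog promoter, which was in 49 of the 257 pairs. Over all cCREs of the locus, 84 of 1256 pairs, or 6.69%, passed this rule, 69 of them with P010. E043- P010+, E043+ P010-, E017- P010- and E029+ P010- were above the sum by log2 values of 1.68 ± 0.65, 1.65 ± 0.74, 1.64 ± 0.54 and 1.58 ± 0.50 (SD, n = 3). E005- P010+ exceeded it by 0.80 ± 0.19. The median member pair was below the sum, by -1.28 ± 0.15, where the empty level counts in both terms of the sum.

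The 3 pairs called lower were E034- P010+, E028- P001+ and E037+ P001+. E034 (chr6:122548084-122548534) brought P010+ from 0.789, 0.627 and 0.864 to 0.210, 0.136 and 0.362, which is 0.289 times the promoter alone (log2 -1.79, SE 0.40, adjusted p = 0.047). P001, which overlaps M6pr (chr6:122308357-122308807), was the strongest promoter, with 4.69, 4.51 and 3.91 as P001+. It gave 2.58, 2.19 and 2.48 after E028- and 2.39, 2.38 and 2.47 after E037+ (log2 -0.85 in both, adjusted p = 0.031 and 0.026). These 3 calls were lost when the Nanog constructs were fitted without those of Klf2. Against the median construct with P001+ the same pairs differed by only -0.35 and -0.34.

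The boost index of a pair sets its activity, on the log2 scale, against the median of all constructs that share its oriented promoter. Taken from the geometric mean of the replicates and averaged over a member's constructs, it was above 0 for 9 of 24 members and below 0 for 15. E017 was among the 9, at 0.089, although the mean of its replicate indices, given below, was just under 0. Among the 19 members with at least 3 promoters, E005 was highest, with 3.08, 4.12 and 2.57 in the 3 replicates, and E043 followed with 1.00, 1.18 and 0.75. E042, E029, E031 and E017 came next with means of the replicates of 0.24 ± 0.52, 0.23 ± 0.03, 0.11 ± 0.16 and -0.04 ± 0.05 (SD, n = 3), so that among these 4 only E029 lay above 0 by more than 1 SD, and neighbours in this order differed by less than their spread. The lowest were E020 (-1.37, -1.53 and -0.51), E009 (-1.02, -1.04 and -0.23), E045 (-0.68, -0.80 and -0.29) and E034 (-0.66, -0.71 and -0.27), all below 0 in every replicate. For E043 the index ranged from -0.36 to 2.11 between constructs, and for E005 from 3.01 to 3.58.

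The boost index with the Nanog promoter was set against that with the other promoters. Of the 19 members with both kinds of pair, 4 had a higher index with P010 (21.1%), beside 32.9% of 73 cCREs tested. A lower one was found for 5 (26.3%), beside 23.3% (limma on the within-replicate difference, adjusted p under 0.05, a test added after the data were seen). Both member shares were thus near or below those over all cCREs. All 9 called members were also called in the same direction next to active cCREs, as given below. That test called 36.8% of 87 cCREs higher and 47.1% lower, so a call there was common, and the overlap was not tested. The contrast is not shown to be particular to P010. Most of the other promoters were near the empty vector alone, and their part in this contrast was not tested. E017 had 1.54, 1.72 and 1.37 with P010 and -0.25, -0.28 and -0.14 over its 10 other promoters, a difference of 1.76 (SE 0.18, adjusted p = 0.0096). E043 had 2.45, 2.26 and 1.47 against 0.51, 0.82 and 0.51 (adjusted p = 0.010). E029 had 1.00, 1.26 and 1.17 against 0.13, 0.09 and 0.05 (adjusted p = 0.010). The index of these 3 was higher with the Nanog promoter in every replicate. E045 also passed (difference 1.01, SE 0.24, adjusted p = 0.022), with 1 construct on P010, E045- P010-, at 0.590, 0.634 and 0.694.

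In the other direction, E020 had the largest difference. Its index was -2.05, -2.76 and -1.07 with P010 and -1.10, -1.03 and -0.29 with 4 other promoters (difference -1.15, SE 0.25, adjusted p = 0.018). The construct E020- P010- gave 0.0696, 0.0646 and 0.246, which is the level of the empty vector, although P010- alone gave 0.451, 0.341 and 0.522. E034, E037, E014 and E042 differed by -0.96, -0.92, -0.90 and -0.74 (adjusted p from 0.014 to 0.024). For E005 the difference was -0.30 (SE 0.33, adjusted p = 0.47), with 1 construct on P010 and 4 on others. Without replicate 3, 3 higher and 0 lower calls were left among members, and without replicate 2 there were 4 and 3.

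Tandem constructs set a member before or after another cCRE, a partner that is no promoter. Constructs of this kind were present for all 32 members, 4095 could be tested, and both fragments were members in 470 of the 4272 listed. Against the second cCRE alone, 264 were called higher (limma, adjusted p under 0.05). The share was 5.66% of 20304 tested in both libraries and 8.58% of 10147 in the Nanog library. There were 5 lower calls, beside 0.227% and 0.355%. Only constructs with a member first read a change that a member makes to its partner. A member stood first in 39 of the 264 and in 2177 of the constructs tested. In the rest of the 264, a cCRE from outside the flank stood before a member. The median change was -0.11 (log2), beside -0.07 over all. In 253 of the 264 the first cCRE had an activity of 1 or more alone, so these calls mostly show an active first fragment before a silent one. Pairing the values within a transfection gave 419 higher and 55 lower calls. Without replicate 1 there was no call in either direction, and without replicate 2 and without replicate 3 there were 136 and 161 higher calls.

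As the first fragment, E005 led to a higher call in 27 of 39 constructs and E023 in 9 of 17. Over all member constructs whose first cCRE had an activity of 1 or more alone, the share was 253 of 397. Such counts are thus not particular to E005 and E023. The median construct with E005 first gave 2.22, 3.00 and 2.56, and with E005 second 3.04, 3.52 and 3.12, so its activity carried through in either place. For the 20 oriented pairs measured in both orders, E005 was less active first than second by -0.57, -0.33 and -0.47 (median of log2 differences). E031 was also lower in first place (-0.64 ± 0.18, SD, n = 3, 79 pairs), as were E043 (-0.44 ± 0.02, 33 pairs) and E017 (-0.34 ± 0.08, 117 pairs). E015 was lower in first place too (-0.48 ± 0.15, 10 pairs). For E023, with 5 pairs, the first place was higher (0.55 ± 0.16). Other members were also higher in first place, among them E013 (0.58 ± 0.27, 33 pairs), E034 (0.47 ± 0.48, 33 pairs) and E033 (0.39 ± 0.26, 76 pairs). Swapping the order moves the partner as well as the member, and E013, E033 and E034 were near the empty vector alone. The sign thus differed between members. Whether it reads the place of the member or that of the partner was not tested. The direction was the same in all replicates for the cCREs named in this comparison, which were chosen after their values were seen.

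The constructs with the highest activity joined a member to an active cCRE from elsewhere in the locus. E029- before E134+ (chr6:123211676-123212126) gave 22.0, 19.6 and 15.1, although E029- alone gave 0.122, 0.0613 and 0.242 and E134+ alone 2.62, 2.67 and 2.93. This was the highest member pair, 2.70 ± 0.39 above the sum of both alone on the log2 scale (SD, n = 3). The median of the other 60 constructs with E134+ second was 1.99, 1.97 and 2.06. The next highest of them was E029+ E134+, at 6.15, 6.54 and 7.76, also with E029 and above the sum by 1.21 ± 0.07. E134- before E029- gave 0.252, 0.287 and 0.829.

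E043+ before E064- (chr6:122662793-122663243) gave 13.0, 12.0 and 9.91, with 0.406, 0.225 and 0.453 for E043+ and 2.18, 2.29 and 2.39 for E064- alone. The other 7 arrangements of E043 and E064 that were measured had lower values, from 2.19 in the lowest replicate of E064+ E043+ to 5.49 in the highest of E064- E043-. E064- E005- reached 8.78, 10.8 and 8.25, above the sum by 0.75 ± 0.19. E074+, E073+ and E116- before E005- followed, at means of 7.38, 7.26 and 7.06. E074+ E005- and E073+ E005- lay near the sum of their parts (0.05 ± 0.08 and 0.07 ± 0.13).

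Only 7 of 4095 member pairs were over 2 times the sum of both cCREs alone in all 3 replicates, beside 0.443% of 10147 pairs of the locus. They were E029- E134+, E029+ E134+, E043+ E064-, E116- E043-, E121- E043+, E023+ E017+ and E090+ E017+. Each of them held E029, E043 or E017, which are 3 of the 4 members that also raised the Nanog promoter. This overlap was seen after the fact and not tested. Members were listed in unlike numbers of tandem constructs, with E017 first in 155 and second in 253, E029 in 123 and 96, and E043 in 66 and 63. E023+ E017+, with both fragments from the flank, gave 4.02, 6.07 and 3.89, against 1.12, 1.24 and 1.35 for E023+ and 0.358, 0.159 and 0.377 for E017+. E090+ E017+ gave 3.69, 6.12 and 4.72. The median member pair was below the sum by -1.09 ± 0.08, beside -1.05 ± 0.06 for the locus.

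The largest changes past the threshold were E073+ E013+ (5.26, log2, over E013+ alone), E020- E136+ (-4.96), E064- E013+ (4.95), E074+ E013+ (4.93), E074+ E045+ (4.86) and E073+ E028- (4.81), each with a limma adjusted p from 0.020 to 0.038. The 5 increases had a strong first cCRE and a silent member second. E074+ E045+ stood out by its level of 5.49, 7.20 and 6.66, above E074+ alone at 4.01, 4.02 and 3.70. E020- E136+ was the reverse, with 0.0141, 0.00941 and 0.122 against 0.782, 0.706 and 0.888 for E136+ alone, below the empty vector in every replicate. The other 4 pairs called lower had a member second, namely E062+ E031-, E080- E031-, E133- E015- and E118+ E023-. E118+ E023- fell from 2.29, 2.52 and 2.35 to 0.498, 0.634 and 0.662 (log2 -2.01, SE 0.39, adjusted p = 0.035).

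Members were also compared next to cCREs that were active alone. The locus had 19 oriented cCREs, from 11 cCREs, with an activity of 1 or more alone, and 24 members were measured with at least 3 of them. Each construct was set against the median construct with the same active partner in the same place, and the mean of these log2 indices was tested over replicates. This test was added after the data were seen, and its error covers the transfections, not the partners. It called 8 members higher, beside 36.8% of 87 cCREs tested, and 11 lower, beside 47.1%.

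Higher were E005 (1.62, SE 0.07), E043 (1.24), E015 (1.07), E045 (0.83), E017 (0.79), E023 (0.61), E029 (0.53) and E031 (0.44). Against the active partner alone rather than the median construct, E005 raised 20 of 21 constructs in all 3 replicates and E043 21 of 22, beside 29.3% of 2424 such constructs of all cCREs of the locus. E043 did so by a mean of 0.84 ± 0.05 (log2, SD, n = 3), and was weak by itself, as given above. E005 was itself active alone, so in its constructs both fragments were active. E045 was above the partner in 6 of 8 constructs and E017 in 26 of 39.

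Lower were E037 (-1.09, SE 0.06), E007 (-0.89), E020 (-0.70), E034 (-0.65), E014 (-0.64), E019 (-0.60) and E042 (-0.44), with E001, E021, E036 and E009 between -0.38 and -0.20. E037 was below the active partner alone in all replicates in 25 of 26 constructs, E007 in 17 of 18, E014 in 26 of 27 and E034 in 19 of 25, beside 58.3% of constructs of the locus. Their mean difference from the partner alone was -1.57 ± 0.15, -1.58 ± 0.15, -1.05 ± 0.05 and -1.08 ± 0.27. The median over all constructs next to an active partner was -0.35, so that such constructs lay on the whole below the active partner alone. E042, which was active alone as E042+, was among the lower members and was below the partner in 20 of 24 constructs.

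With partners whose activity alone was under 0.2, E017, E029 and E045 had indices of 0.28 ± 0.14, -0.08 ± 0.12 and -0.09 ± 0.03 (SD, n = 3). E043 had 0.97 ± 0.44 and E005 4.12 ± 1.12 with such partners.

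Orientation before a promoter could be compared in 69 pairs of constructs from 17 members. None was called by limma, beside 0% of 1579 pairs in both libraries, with 11 at an unadjusted p under 0.05. A fit without pairing called 1 of the 69. The 5 with the smallest p were E036 with P010+, E034 with P010+, E031 with P010-, E042 with P016+ and E021 with P023+. E036 with P010+ was higher as - by 1.21 (log2 + minus - of -1.21, SE 0.12, adjusted p = 0.070) and E034 with P010+ higher as + by 1.53 (SE 0.22, adjusted p = 0.089).

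The members and the other cCREs of the locus did not differ in their means beyond the spread of the replicates. The mean boost index of 24 members was 0.11, 0.10 and 0.10 in the 3 replicates and that of 64 other cCREs 0.09, 0.29 and 0.18. The difference was -0.08 ± 0.10 (SD, n = 3, exact two-sided sign permutation p = 0.50, where 3 replicates allow no p below 0.25). The mean log2 activity alone differed by 0.00 ± 0.06 (members minus others of 0.07, -0.02 and -0.04, exact p = 1). A mean boost index above 1 was found for 3 of 24 members and 9 of 64 others. The median index over cCREs was -0.175 for members and -0.037 for others. With only cCREs of at least 3 promoters, the difference in means was -0.18. Pairs called higher than the promoter alone made up 4.28% of member pairs and 16.7% of the 999 pairs of other cCREs. With P010 they were 6 of 49 and 54 of 135, with a median log2 change of -0.10 and 0.46. Among promoters under 2 times the empty vector alone, they were 5 of 203 and 107 of 801. Among promoters of at least 2 times, they were 6 of 54 and 60 of 198. The difference in these shares was not tested. Partner promoters are not the same in both sets, except in the comparison with P010, which holds 1 promoter fragment.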

How the data were processed

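Activities of Nanog-locus constructs in 3 biological replicates were taken as the authors deposited them, as a ratio of RNA to plasmid DNA barcodes. Bowtie2 and mm10 are named in the submitters' processing notes; barcode counting, filters and scaling are not given in the sources used here. A further 28 value columns, which hold means, indices and other assays, were not used. Fragment names, strands and coordinates are as in the table, and what + and - refer to is not stated. The members and lists were chosen with earlier results of these data known.

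Tests on log2 activities used limma (lmFit and eBayes, version 3.58.1, R 4.3.3), with Benjamini-Hochberg adjustment over all constructs of a kind at 0.05. A construct was dropped where any replicate was 0. cCRE-promoter and tandem pairs were tested without a replicate block against the promoter or second cCRE alone; single cCREs and orientations were tested on within-replicate differences. Pair and baseline are read in the same transfection, and this is what the block uses. The tests were checked on simulated data. Text names the 6 highest and 4 lowest members by boost index, the 6 highest and 3 lowest alone, the 8 largest promoter changes and every lower call, the 6 highest and 6 largest tandem pairs, and the 5 leading orientation differences. Alternatives left out each replicate, kept zeros with a pseudocount of 0.01, left out mean activities under 0.1, and changed the constructs, prior, pairing and baseline. Gene positions come from RefSeq on GRCm38.p6, and the gene annotation of 2 members is not reported here. Tables were made with Python 3.11.15, numpy 2.4.6 and pandas 2.3.3.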

Additional observations from a re-analysis of the deposited data

How the results depend on the processing

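Calls among members depended on the replicates. Leaving out 1 replicate in turn gave 0 higher and 0 lower promoter pairs each time (11 and 3 with all), 0 to 161 higher and 0 to 3 lower tandem pairs (264 and 5), 0 to 6 lower fragments alone (0), 0 to 5 lower calls for the Nanog promoter (5), and 0 to 5 orientation calls alone (6). With the replicate block there were 13 lower promoter pairs, and 419 higher and 55 lower tandem pairs. With a variance trend and robust prior there were 18 higher and 13 lower promoter pairs, 519 higher and 142 lower tandem pairs, and 1 orientation call alone. Nanog constructs alone gave 0 lower promoter pairs and 20 lower tandem pairs. The median construct as baseline gave 9 lower promoter pairs, the first cCRE alone 64 lower tandem pairs, and mean activities of at least 0.1 gave 8. Without pairing there were 7 higher fragments alone, 1 orientation call before promoters and 0 alone. The median over cCREs moved the difference in activity alone to 0.10. E019+ alone ranged from -0.94 to 0.079 with 1 replicate left out, reversing without replicate 2. With the first cCRE as baseline 5 tandem pairs reversed, E074+ E013+ to -0.34, E062+ E031- to 0.33, E133- E015- to 0.36, E080- E031- to 0.78 and E118+ E023- to 2.69, since another fragment is then subtracted. The cause of the other changes was not tested. Over all alternatives of the named members and pairs, 387 values kept their direction and side of the threshold, 106 lost the threshold, 12 gained it and 6 reversed. The barcode numbers are unknown, so no counting error can be given for low values.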
